A study of Mus musculus with 2 samples.

Results

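The genes described are 10 of the 32285 genes in the count tables, and they were taken by symbol from a list of endothelial barrier and fenestration genes. They are Plvap, Cldn5, Ocln, Tjp1, Slc2a1, Slco1a4, Slc38a5, Mfsd2a, Abcb1a and Abcg2, and all of them were found in both tables. Dorsal meninges were profiled by single-cell RNA-seq in 2 libraries, 1 after a Sham procedure and 1 after mild traumatic brain injury (TBI) delivered to the closed skull. Each library pooled 5 male C57BL/6 mice (C57BL/6J in the text of the study), collected 1 week after the procedure at 10 weeks of age, which another field of the labels gives as 10 to 12 weeks. The tissue was digested with collagenase and DNase and sorted for live single cells, so every level below is for cells that came through that digestion and sort.

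Blood vessels inside the brain and spinal cord form a barrier. Their endothelial cells are sealed by tight junctions, carry little vesicle traffic, take up glucose, amino acids and lipids through dedicated transporters, and return many drugs to the blood with efflux pumps. Vessels of the dura, like those of most peripheral organs, are leakier, and fenestrated capillaries carry diaphragms built from the product of Plvap. Levels of Plvap and of the barrier genes therefore help to tell the vessels of the dura from those of the leptomeninges and brain surface.

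Most endothelial cells of both libraries carried Plvap and few UMIs of Cldn5, Slc2a1, Slco1a4 or Slc38a5. A small subcluster of endothelial cells, 17 in the Sham and 42 in the TBI library, had the reverse: Cldn5, Slc2a1, Slco1a4 and Slc38a5 at their highest levels and 0 or 1 UMI of Plvap. This subcluster was found without using any of the 10 genes. Between the libraries, Plvap was higher after TBI in venous-like cells (2561 against 1566 CPM), and Slc2a1 and Slc38a5 were higher in endothelial cells as a whole. In venous-like cells 3 of 9 genes counted were at least 1.5-fold apart, against 31.9% of all genes. In endothelial cells as a whole 2 of 9 were, against 17.0% of all genes. Without the small subcluster, the counting interval of Slc2a1 in endothelial cells as a whole held 0. Slc38a5 then had 4 TBI and 0 Sham UMIs. With 1 library in each group there is no test between Sham and TBI, and all intervals below are exact 95% intervals that cover counting error only, not the difference between mice.

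All 10 genes have a defined place in the GRCm38 annotation. Plvap lies on chromosome 8 (71497765 to 71511752, minus strand), Cldn5 on 16 (18776847 to 18778262, plus), Ocln on 13 (100496507 to 100552718, minus) and Tjp1 on 7 (65296165 to 65527781, minus). Slc2a1 lies on chromosome 4 (119108711 to 119137983, plus), Mfsd2a on the same chromosome (122946850 to 122961188, minus), and Slc38a5 on X (8271133 to 8280179, plus). Slco1a4 (141805440 to 141856199, minus) and Abcg2 (58584523 to 58695676, plus) both lie on chromosome 6. Abcb1a lies on 5 (8660077 to 8748575, plus) beside its close paralog Abcb1b, so its UMIs could be split between the paralogs in counting. Abcb1b itself had 4 UMIs in the endothelial cells of each library.

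The promoters of Cldn5, Slc2a1, Slc38a5 and Slco1a4 are shown because these 4 genes had the highest ratios of the small barrier-type subcluster over the venous one among the genes counted. Each window runs from 250 bases before to 50 bases after the RefSeq start in GRCm38.p6 and is written 5′ to 3′ on the strand of the gene. RefSeq windows matched 9 of the 10 genes, and Plvap had none. The windows are chr16:18776597-18776896 (Cldn5, plus), chr4:119108495-119108794 (Slc2a1, plus), chrX:8271131-8271430 (Slc38a5, plus) and chr6:141856171-141856470 (Slco1a4, minus). Capitals mark matches on either strand to 5 short motifs that were picked after the levels had been seen.
Cldn5: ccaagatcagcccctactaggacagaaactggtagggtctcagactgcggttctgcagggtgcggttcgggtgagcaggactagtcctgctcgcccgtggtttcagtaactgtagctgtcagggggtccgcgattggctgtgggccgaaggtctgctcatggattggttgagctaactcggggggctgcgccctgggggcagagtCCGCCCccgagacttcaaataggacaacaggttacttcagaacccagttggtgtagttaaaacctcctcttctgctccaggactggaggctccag
Slc2a1: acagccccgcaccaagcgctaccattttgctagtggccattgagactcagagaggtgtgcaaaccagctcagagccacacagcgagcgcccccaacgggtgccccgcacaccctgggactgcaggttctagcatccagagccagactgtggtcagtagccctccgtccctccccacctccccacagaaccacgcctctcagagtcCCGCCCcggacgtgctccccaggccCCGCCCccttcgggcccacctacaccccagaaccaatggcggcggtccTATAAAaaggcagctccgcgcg
Slc38a5: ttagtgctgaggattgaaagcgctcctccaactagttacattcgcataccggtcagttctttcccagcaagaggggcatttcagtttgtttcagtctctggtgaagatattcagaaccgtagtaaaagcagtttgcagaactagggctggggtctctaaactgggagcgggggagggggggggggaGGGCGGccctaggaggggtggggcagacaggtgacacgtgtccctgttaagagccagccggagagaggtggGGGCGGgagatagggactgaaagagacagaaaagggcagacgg
Slco1a4: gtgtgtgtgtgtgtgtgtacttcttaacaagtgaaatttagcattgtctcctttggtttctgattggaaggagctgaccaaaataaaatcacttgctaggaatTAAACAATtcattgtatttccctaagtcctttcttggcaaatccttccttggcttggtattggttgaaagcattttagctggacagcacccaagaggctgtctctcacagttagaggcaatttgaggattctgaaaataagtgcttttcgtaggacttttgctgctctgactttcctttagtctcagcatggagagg
The GC box GGGCGG, found in 35.66% of all 32851 windows, was present at base 206 of the Cldn5 window, at bases 206 and 231 for Slc2a1 and at bases 187 and 258 for Slc38a5. The TATA box TATAAA (13.62% of windows) was found at base 279 of the Slc2a1 window. The FOX motif TAAACA (13.44% of windows) at base 104 of the Slco1a4 window overlapped the SOX motif AACAAT (10.72%) at base 106. None of these 4 windows held the LEF/TCF motif CTTTGA, which 16.0% of all windows held. No motif of the 5 was thus in all 4 windows, and the GC box was in all but that of Slco1a4. A match or its lack in 300 bases is only a description of the letters.

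The libraries held 2699 (Sham) and 4349 (TBI) barcodes with 9527334 and 15011079 UMIs. After filters, 2043 and 3773 cells were kept, with median depths of 2764 and 2663 UMIs. Filters on hemoglobin took out 604 and 431 barcodes, and 20 barcode sequences occurred in both libraries, 14 of them among the kept cells. The counts of genes at least 1.5-fold apart between classes or libraries below were the same with those cells removed. Endothelial-like cells, named by markers that include Pecam1 and Cdh5, numbered 311 in the Sham and 580 in the TBI library (619996 and 1326854 UMIs).

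The endothelial-like cells fell into a capillary-like class (207 Sham and 326 TBI cells), a venous-like class (67 and 179) and an arterial-like class (37 and 75). Capillary-like cells made up 66.56% of the endothelium in the Sham library (interval 61.02 to 71.78) and 56.21% in the TBI library (52.06 to 60.29). Gpihbp1, which anchors lipoprotein lipase on capillaries, was at 1056 CPM (UMIs of the gene per 1000000 UMIs of the class) in Sham and 1263 CPM in TBI capillary-like cells, against 20.6 and 8.382 CPM in venous-like cells. Vwf, the carrier of clotting factor VIII, was at 3365 and 3591 CPM in venous-like cells against 14.67 and 43.11 CPM in capillary-like cells. Cytl1 did not mark the venous-like class alone: it was at 489.9 and 390.6 CPM in arterial-like cells, at 185.4 and 339.5 CPM in venous-like cells and at 0 in capillary-like cells. Lymphatic endothelium was nearly absent, with 6 and 7 UMIs of its defining factor Prox1, and all 44 Sham UMIs of the lymphatic chemokine Ccl21a came from 1 cell.

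Plvap was the fenestration gene of the set, and its level followed the capillary-like class. It was at 4285 CPM in Sham and 4046 CPM in TBI capillary-like cells, at 1566 and 2561 CPM in venous-like cells, and at 290.9 and 574.4 CPM in arterial-like cells. In the capillary-like class, 89.37% of Sham and 93.25% of TBI cells held a Plvap UMI, and 91.57% and 92.28% did once each cell was thinned to 1000 UMIs. Thinning left out the 71 Sham and 99 TBI endothelial-like cells below that depth. B cells, which should lack the gene, held a Plvap UMI in 0.2681% and 1.987% of cells at median depths of 3082 and 2654.5 UMIs, against 1836 and 1938 UMIs in the capillary-like cells, so the share was far lower in the deeper B cells.

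The junction genes had different patterns. Cldn5, the main claudin of brain endothelium, was highest in arterial-like cells (1669 Sham and 1424 TBI CPM) and venous-like cells (954.6 and 1088 CPM), and was at 110.0 and 63.97 CPM in capillary-like cells. Occludin (Ocln), a membrane protein of tight junctions, was at 109.9 and 81.72 CPM in venous-like cells and rested on 2 Sham and 3 TBI UMIs in capillary-like cells. Tjp1, which encodes the scaffold ZO-1, varied least among the junction genes, at 256.7 and 228.1 CPM in capillary-like, 412.1 and 377.2 CPM in venous-like and 428.7 and 337.0 CPM in arterial-like cells. Cldn5 held 0 UMIs in the 373 Sham and 302 TBI B cells, where the exact intervals of the share of cells with a UMI reach 0.9841% and 1.214%.

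The transporter genes were highest in the venous-like class. Slc2a1, the glucose transporter GLUT1, was at 425.8 CPM in Sham and 802.5 CPM in TBI venous-like cells against 44.0 and 43.11 CPM in capillary-like cells. Slco1a4, an organic anion transporter, was at 398.3 and 458.9 CPM against 102.7 and 61.19 CPM. Slc38a5, an amino acid transporter with glutamine among its substrates, was at 171.7 and 316.4 CPM against 2 UMIs in each library. Mfsd2a, the lysophospholipid transporter that restrains vesicle traffic at the blood-brain barrier, had 1 Sham and 2 TBI UMIs in all endothelial-like cells, so no level can be given for it.

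A low share of cells with Slc2a1 was not particular to endothelium. In capillary-like cells 6.28% (Sham) and 8.282% (TBI) held a Slc2a1 UMI, and in B cells 9.651% and 7.616% did, so the shares in capillary-like cells and in the deeper B cells lay close together. In venous-like cells 25.37% and 37.43% of cells held a Slc2a1 UMI, or 17.02% and 32.24% once thinned. Slc38a5 was found in 13.43% and 18.99% of venous-like cells, against 0.2681% and 0% of B cells.

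The efflux pump genes were spread more evenly. Abcb1a, which encodes P-glycoprotein, was at 132.0 and 109.9 CPM in capillary-like cells, 295.3 and 301.7 CPM in venous-like cells and 214.3 and 206.8 CPM in arterial-like cells. Abcg2, the breast cancer resistance protein, was at 520.7 and 524.3 CPM in capillary-like, 638.7 and 674.7 CPM in venous-like and 199.0 and 283.3 CPM in arterial-like cells. Abcg2 was thus lowest in the arterial-like class of both libraries, where Cldn5 was highest.

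**Figure D1:**
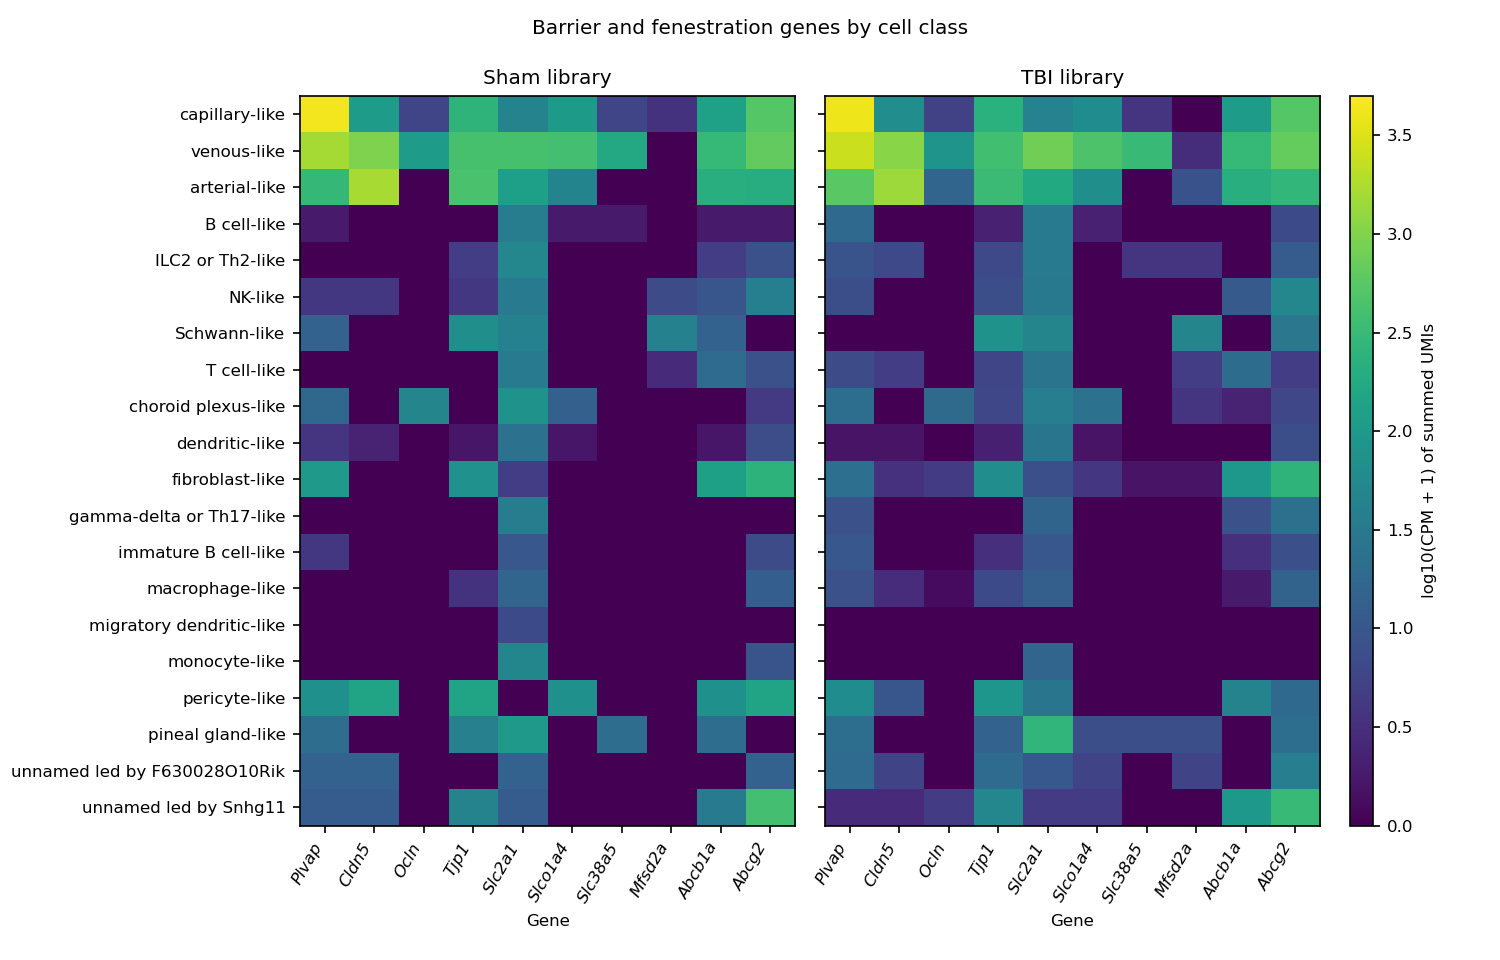
Levels of the 10 genes in 20 cell classes of the Sham and the TBI library, as log10 of CPM of summed UMIs plus 1 (colour) with genes in columns and classes in rows. Plvap is brightest in capillary-like cells, Cldn5 in arterial-like cells, and Slc2a1, Slco1a4 and Slc38a5 in venous-like cells, while Slc2a1, Tjp1 and Abcg2 are also seen outside endothelium.

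To compare venous-like with capillary-like endothelium within each library, the log2 ratio of their CPM was taken for genes with at least 20 UMIs in both classes together. In the Sham library 7 of the 8 genes counted were at least 1.5-fold apart, 6 higher in venous-like cells and Plvap lower, where 44.0% of all genes were that far apart. In the TBI library 8 of 9 were, 7 higher and Plvap lower, against 33.8% of all genes. Abcg2 was the exception in both libraries (log2 ratio 0.30, interval -0.07 to 0.65, in Sham and 0.36, 0.14 to 0.58, in TBI). The steepest ratios were those of Slc38a5 (4.84, interval 3.13 to 8.26, in Sham; 6.51, 4.95 to 9.89, in TBI), which rest on 2 capillary UMIs in each library. Slc2a1 followed at 3.25 (2.50 to 4.12) and 4.20 (3.69 to 4.80), and Cldn5 was at 3.11 (2.62 to 3.64) and 4.07 (3.65 to 4.56). Plvap was at -1.45 (-1.66 to -1.25) in Sham and -0.66 (-0.76 to -0.56) in TBI. Slc38a5 in both libraries and Ocln in TBI met the 20-UMI limit through venous-like cells alone, with 2 or 3 capillary-like UMIs. These could hardly be less than 1.5-fold apart.

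A small group of cells held most of that contrast. When the 59 cells of the barrier-type subcluster described next were set aside, 2 of 6 genes counted in the Sham library (Cldn5 higher and Plvap lower) and 1 of 7 in the TBI library (Slc2a1, higher) were at least 1.5-fold apart, where 46.4% and 35.6% of all genes were. The venous-over-capillary log2 ratio of Cldn5 then came to 0.76 and 0.48, that of Slco1a4 to 0.15 and 0.35, and that of Slc2a1 to 1.21 in TBI. Abcb1a came to -0.19 in Sham and 0.25 in TBI, and Plvap to -1.12 and -0.26. Slc2a1 in Sham, Ocln in TBI and Slc38a5 in both libraries then had fewer than 20 UMIs and were not counted, and Ocln in Sham was not counted in either case. Ocln had 10 venous against 2 capillary UMIs in Sham and 11 against 3 in TBI.

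The endothelial-like cells were clustered again without the 10 genes or the genes of the related pathway lists. Of the 6 resulting subclusters, 1 (17 Sham and 42 TBI cells) carried 6 of 10 markers of central nervous system (CNS) barrier capillaries among its 50 leading genes, and none of those 10 markers is among the genes described. It made up 5.466% of endothelial-like cells in the Sham library (interval 3.216 to 8.608) and 7.241% in the TBI library (5.268 to 9.662), and these intervals overlap. The Wnt effector Lef1 was at 572.7 and 450.7 CPM there and the transcription factor Foxq1 at 512.4 and 434.0 CPM, while Gpihbp1 and Cytl1 had 0 UMIs. Markers of veins were mixed in it. Vwf was at 3346 and 2804 CPM. The chemokine-binding receptor gene Ackr1 was at 120.6 and 559.2 CPM, against 8.732 and 44.19 CPM in the venous subcluster. Lrg1, Slco2a1, Adgrg6, Selp, Nr2f2 and Ptgs1 were lower than in that subcluster. Selp was at 0 and 50.08 against 165.9 and 185.0 CPM, and Slco2a1 at 30.14 and 108.5 against 541.4 and 610.3 CPM. Of the capillary markers, Car4 was at 90.43 and 192.0 CPM (3 and 23 UMIs), while Rbp7, Cd300lg and Lpl had 0 UMIs. Of the 59 cells, 56 lay in the venous-like class. The subcluster is therefore called barrier-type here, after the marker list, and neither venous nor capillary. The other subclusters were venous (52 Sham and 136 TBI cells), capillary (79 and 104) and arterial (35 and 77). There was also an unnamed one led by Ifi44, Inhbb and Chrm2 (128 and 211). The last held 10 TBI cells with B cell and macrophage genes, 7 of which were predicted doublets. The unnamed one carried 2 capillary markers among its 50 leading genes, where a name needed 3. Yet 335 of its 339 cells lay in the capillary-like class, and its Gpihbp1 level was 1285 and 1481 CPM. In the subcluster named capillary Gpihbp1 was at 566.8 and 682.8 CPM, so that name does not cover all capillary-like cells.

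In this CNS barrier-type subcluster the barrier genes reached their highest endothelial levels. Cldn5 was at 4311 CPM in the Sham and 4148 CPM in the TBI library, and was found in 16 of 17 and 42 of 42 cells. Slc2a1 was at 1990 and 3046 CPM (14 of 17 and 40 of 42 cells), and Slco1a4 at 1809 and 1669 CPM (13 and 42 cells). Slc38a5 was at 813.9 and 1244 CPM (10 and 32 cells). The median depth of these cells was 1456 UMIs in Sham and 2795.5 in TBI, which differ enough that their shares of cells with a UMI are not compared.

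The remaining junction and efflux genes were present there too. Abcb1a was at 1115 and 809.6 CPM, Tjp1 at 904.3 and 701.1 CPM, and Abcg2 at 783.7 and 968.2 CPM. Ocln was at 180.9 and 242.0 CPM, on 6 and 29 UMIs. All 3 endothelial UMIs of Mfsd2a, 1 in Sham and 2 in TBI, came from these cells. Plvap had 0 UMIs in the 17 Sham cells, where 3 counts would be 90.43 CPM, and 1 UMI in the 42 TBI cells.

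**Figure D2:**
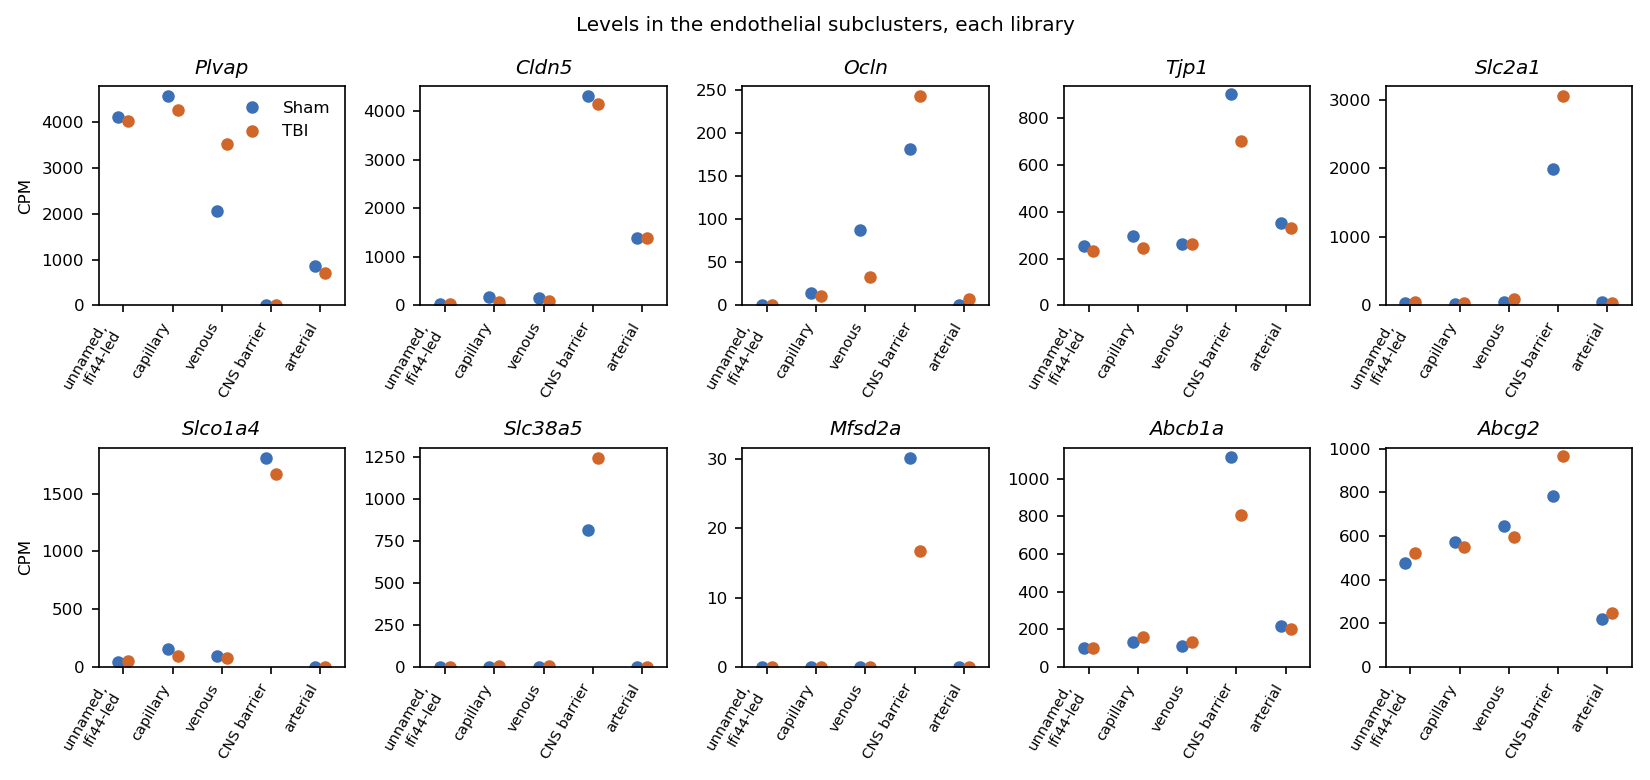
CPM of each gene (y axis, linear from 0) in 5 endothelial subclusters of the Sham and TBI libraries, 1 point per library with no replicate. Cldn5, Slc2a1, Slco1a4 and Slc38a5 peak in the CNS barrier subcluster, where Plvap is at 0 CPM in Sham and 8.346 CPM in TBI.

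The neighbouring venous subcluster, which had as much Vwf (3318 Sham and 3723 TBI CPM), showed the opposite arrangement. Its Plvap level was 2052 and 3516 CPM, and its Cldn5 level 148.4 and 91.14 CPM. Slc2a1 was at 43.66 and 99.42 CPM, and Slc38a5 had 0 Sham and 2 TBI UMIs. In the Sham library 7 of 8 genes counted were at least 1.5-fold apart between the barrier and the venous subcluster, 6 of them higher in the barrier subcluster, where 47.0% of all genes were. In the TBI library 9 of 9 were, 8 of them higher, against 43.1% of all genes. The log2 ratio of Cldn5 was 4.82 (4.13 to 5.68) in Sham and 5.49 (5.00 to 6.06) in TBI. That of Slco1a4 was 4.18 (3.29 to 5.31) and 4.46 (3.90 to 5.12). That of the efflux gene Abcb1a was 3.26 (2.35 to 4.33) and 2.63 (2.12 to 3.18). Abcg2 had the smallest ratios, 0.30 (-0.43 to 0.94) and 0.70 (0.36 to 1.03), and Plvap in TBI had a ratio of -8.13 (-14.02 to -6.24) on its 1 UMI.

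The share of each gene's endothelial UMIs that came from the barrier subcluster ordered the genes. For Slc38a5 it was 100% in Sham and 97.39% in TBI, for Slc2a1 75% and 83.52%, and for Slco1a4 58.25% and 73.53%. For Cldn5 it was 48.81% and 66.18%, since arterial cells held much of the rest (1386 and 1391 CPM in the arterial subcluster). For Ocln it was 33.33% and 65.91%, on 18 and 44 UMIs in all. The pumps and the scaffold were lower, at 33.33% and 38.8% for Abcb1a, 15.54% and 21.65% for Tjp1 and 8.15% and 15.76% for Abcg2. For Plvap it was 0% and 0.02378%.

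**Figure D3:**
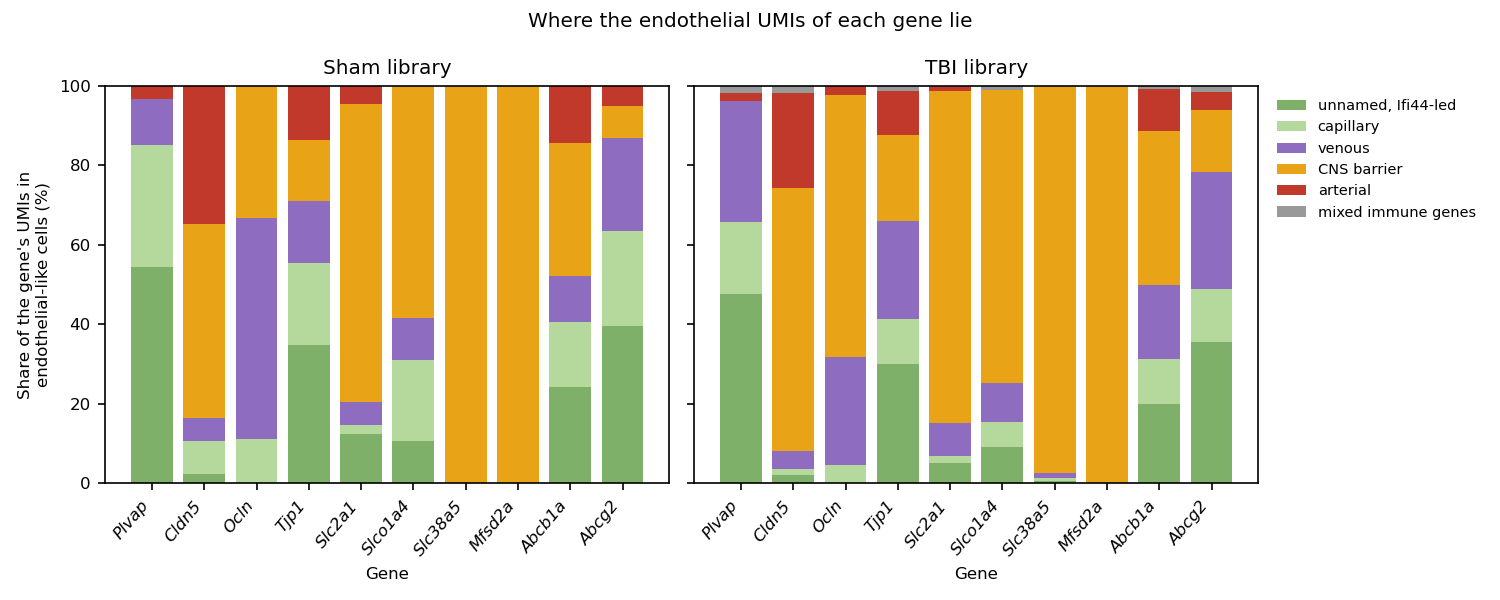
Share of each gene's UMIs in endothelial-like cells (y axis, percent) that came from each subcluster, as stacked bars for the Sham and TBI libraries. The CNS barrier subcluster, 5.466% and 7.241% of the cells, holds 75% and 83.52% of Slc2a1 UMIs and almost none of Plvap, while the Mfsd2a bars stand for 1 and 2 UMIs.

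Over all endothelial-like cells together, single cells showed the same separation of Plvap from the transporters. Among cells with a Slc38a5 UMI, Plvap was found in 0 of 10 Sham and 2 of 36 TBI cells, against 76.74% and 82.35% of the cells without Slc38a5. Among cells with Cldn5, 37.7% and 33.05% held Plvap, against 83.2% and 88.96% of the rest. The same shares were 55.56% and 47.06% for cells with Slco1a4 and 48.57% and 52.0% for cells with Slc2a1. In these raw counts Abcb1a separated least, with Plvap in 71.43% and 68.21% of its cells against 75.1% and 80.89% of the rest. After each cell was thinned to 1000 UMIs the share with Plvap was 22.5% and 26.67% for Cldn5, against 85.0% and 86.7% of the rest. It was 47.06% and 35.59% for Slco1a4 (rest 76.68% and 81.04%) and 20.0% and 31.25% for Slc2a1 (rest 78.22% and 82.25%). For Abcb1a it was 45.71% and 59.72% (rest 79.51% and 78.24%). Once thinned, Abcb1a thus separated least in TBI only, and in Sham Slco1a4 did.

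The transporters were found together. Slco1a4 was present in 9 of 10 Sham and 33 of 36 TBI cells with Slc38a5, against 8.97% and 9.559% of cells without it. Thinned to 1000 UMIs, it was present in 3 of 7 Sham (42.86%) and 24 of 28 TBI cells (85.71%) with Slc38a5, against 6.009% and 7.726% of the others. Slc2a1 was present in 90% of the Sham and 88.89% of the TBI cells with Slc38a5, against 8.638% and 12.5% of the others, and in 71.43% and 92.86% after thinning. In the capillary-like class, where Plvap was almost always present, 16 of the 17 Sham and 15 of the 17 TBI cells with Cldn5 also held Plvap. After thinning, 7 of 11 Sham cells with Cldn5 did (63.64%, against 93.55% of cells without it), and 9 of 10 TBI cells (90.0%, against 92.37%). In raw counts of this class, Plvap was in 78.95% of Sham and 100% of TBI cells with Slco1a4. The rest were at 90.43% and 92.67%. For Slc2a1 the shares were 92.31% and 96.3%, against 89.18% and 92.98% of the rest.

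**Figure D4:**
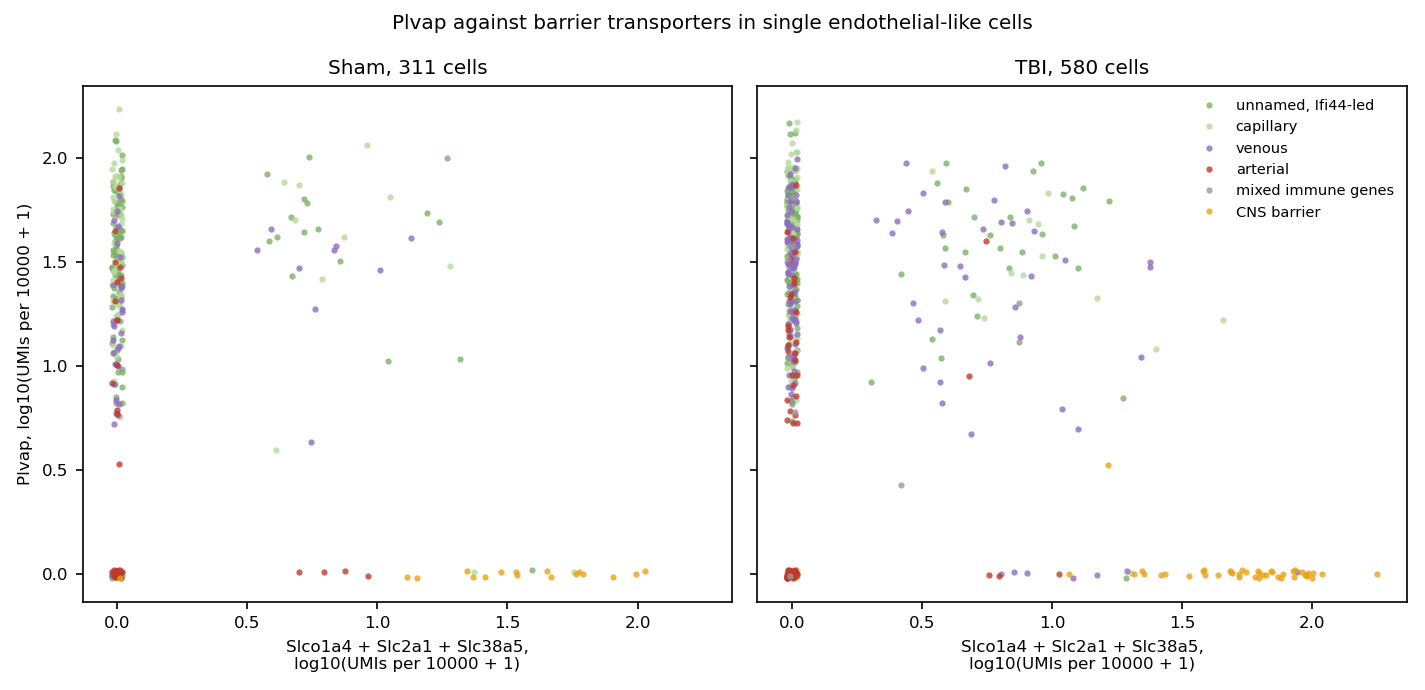
Plvap against the sum of Slco1a4, Slc2a1 and Slc38a5 in each endothelial-like cell, both as log10 of UMIs per 10000 plus 1, with 1 point per cell coloured by subcluster and spread slightly around 0. All but 1 of the 59 CNS barrier cells lie at 0 on the Plvap axis, most of them at the right, and most other cells lie at the left with Plvap above 0.

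The TBI library was then compared with the Sham library. In all endothelial-like cells together, 2 of the 9 genes counted were at least 1.5-fold apart, both higher after TBI, where 17.0% of all genes were that far apart. Slc2a1 was at 329.4 CPM in TBI and 141.9 CPM in Sham (log2 ratio 1.21, interval 0.88 to 1.56). Slc38a5 was at 115.3 and 43.55 CPM (1.38, 0.81 to 2.05). Plvap was at 3170 CPM in TBI and 3226 CPM in Sham (-0.03, -0.10 to 0.05), and the intervals of Ocln, Tjp1, Slco1a4, Abcb1a and Abcg2 also held 0. Cldn5 was at 566.0 and 472.6 CPM (0.26, 0.06 to 0.46), which is less than 1.5-fold.

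The makeup of the endothelium also differed between the libraries. Venous-like cells were 30.86% of the endothelium in TBI and 21.54% in Sham. The barrier subcluster, which carried most Slc2a1 and Slc38a5 UMIs, gave 119816 of 1326854 endothelial UMIs in TBI and 33174 of 619996 in Sham. Its share of cells was 7.241% in TBI and 5.466% in Sham, with overlapping intervals. Its median depth was 2795.5 UMIs in TBI and 1456 in Sham, so its UMI totals mix cells and depth. A sum over endothelial cells cannot tell more cells of a kind from more RNA in each. Without the barrier subcluster the log2 ratio of Slc2a1 was 0.65 (interval -0.04 to 1.43), Slc38a5 had 4 TBI and 0 Sham UMIs and was not counted, Ocln came to -0.73 (-1.91 to 0.51), and Cldn5 was at -0.28 in place of 0.26.

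Within the barrier subcluster, 2 of 8 genes counted were at least 1.5-fold apart, both higher after TBI, where 36.9% of all genes were, so the share of these genes was below that of genes at large. These were again Slc2a1 (3046 against 1990 CPM, log2 ratio 0.61, 0.23 to 1.02) and Slc38a5 (1244 against 813.9 CPM, 0.59, 0.01 to 1.26). Both lay close to the 1.5-fold line. Without the 0.5 UMI added, their log2 ratios were 0.61 and 0.61. On that measure a minimum of 200 genes per cell gave 0.58 for Slc38a5, just under 1.5-fold. At resolution 0.4 the subcluster kept all 59 cells but had 52 TBI cells, and the ratios were 0.23 and 0.22. It then held 72 Plvap UMIs in place of 1. The 10 TBI cells with B cell and macrophage genes held 71 Plvap UMIs and 1 Slc2a1 UMI. Whether these were the cells taken in was not tested. In single barrier cells Slc2a1 ranged from 0 to 43.55 UMIs per 10000 in Sham (median 15.85) and from 0 to 93.41 in TBI (median 29.48). These ranges are over cells, which are not replicates. Slc38a5 had medians of 4.511 and 9.701 UMIs per 10000, where the median cell held 1 and 2 UMIs. The median depths differ (1456 in Sham and 2795.5 in TBI), which limits the comparison of such per-cell values. Cldn5 (median 40.45 and 42.76) and Slco1a4 (15.85 and 15.18) had close medians, with log2 ratios over the summed UMIs of -0.06 (-0.33 to 0.22) and -0.12 (-0.54 to 0.33).

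In capillary-like cells 2 of 7 genes were at least 1.5-fold apart, both lower after TBI, against 17.9% of all genes. Cldn5 was at 63.97 CPM in TBI and 110.0 CPM in Sham (log2 ratio -0.78, -1.41 to -0.16), and Slco1a4 at 61.19 and 102.7 CPM (-0.75, -1.39 to -0.10). These rest on few cells: in the Sham library, 1 cell of the barrier subcluster gave 11 of the 45 Cldn5 and 9 of the 42 Slco1a4 UMIs. Without that subcluster the ratios were -0.39 and -0.41 and neither was 1.5-fold. In the TBI library, 13 of the 46 Cldn5 UMIs came from the subcluster with B cell and macrophage genes, and without it the ratio of Cldn5 was -1.20. By subcluster, Cldn5 was at 67.16 against 179.0 CPM in the capillary one (-1.39, -2.55 to -0.36, on 12 and 24 UMIs) and at 32.02 against 26.45 CPM in the one led by Ifi44 (0.22, -1.09 to 1.80). Plvap in capillary-like cells had a ratio of -0.08 (interval -0.17 to 0.0033).

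In venous-like cells 3 of 9 genes were at least 1.5-fold apart, all higher after TBI, a share close to the 31.9% of all genes. Plvap was at 2561 CPM in TBI and 1566 CPM in Sham (log2 ratio 0.71, 0.50 to 0.92). Slc2a1 was at 802.5 and 425.8 CPM (0.90, 0.52 to 1.33), and Slc38a5 at 316.4 and 171.7 CPM (0.86, 0.26 to 1.55). The median log2 ratio of all genes in this class was 0.07. With scaling by the median ratio in place of the UMI totals, the log2 ratio of Plvap was 0.55, just under 1.5-fold. Without the barrier subcluster, Plvap (0.77) and Slc2a1 (1.08, interval -0.16 to 2.90) were higher, and Cldn5 (-0.67, -1.56 to 0.31) and Ocln (-1.52, -2.89 to -0.12) were lower.

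The Plvap difference was also present in the venous subcluster, which has no barrier cells. Plvap was at 3516 CPM in TBI and 2052 CPM in Sham there (0.77, 0.58 to 0.98), with a Plvap UMI in 119 of 136 and 38 of 52 cells at median depths of 2308 and 1876 UMIs. In that subcluster 4 of 8 genes were at least 1.5-fold apart, against 34.1% of all genes. The others were Slc2a1, higher (99.42 against 43.66 CPM, on 36 and 5 UMIs), Cldn5, lower (91.14 against 148.4 CPM, on 33 and 17 UMIs), and Ocln, lower (33.14 against 87.32 CPM, on 12 and 10 UMIs). Of these only the intervals of Plvap and Ocln left out 0. In arterial-like cells Plvap was at 574.4 CPM in TBI and 290.9 CPM in Sham (0.95, 0.24 to 1.79), but in the arterial subcluster it was at 710.8 and 869.8 CPM (-0.29, -0.77 to 0.19), so the arterial difference did not hold when the cells were regrouped.

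**Figure D5:**
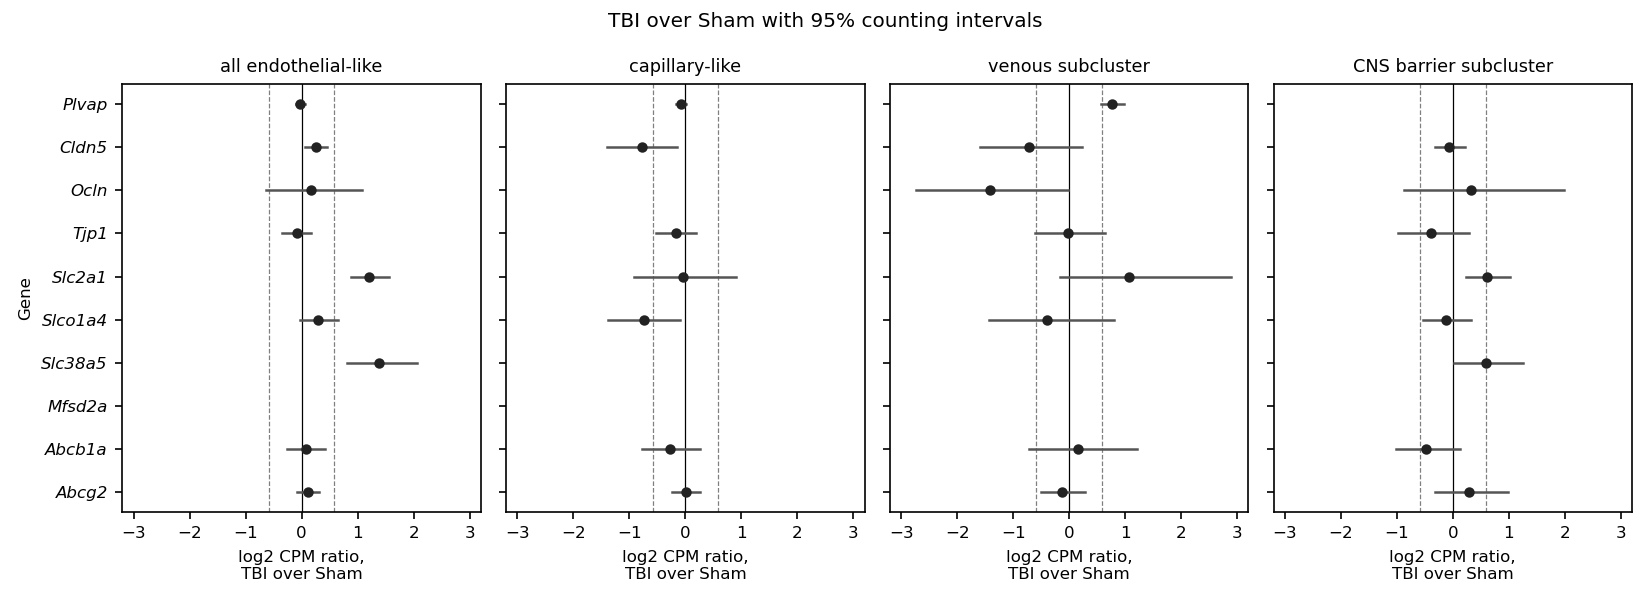
Log2 CPM ratio of TBI over Sham (x axis) for each gene with at least 20 UMIs in all endothelial-like cells, capillary-like cells, the venous subcluster and the CNS barrier subcluster, with exact 95% counting intervals as bars, 1.5-fold as dashed lines and 1 library per group. Slc2a1 (1.21) and Slc38a5 (1.38) lie right of the dashed line in all endothelial-like cells, Plvap lies near 0 in capillary-like cells and at 0.77 in the venous subcluster, and Cldn5 (-0.78) and Slco1a4 (-0.75) lie left of 0 in capillary-like cells.

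Outside endothelium, Slc2a1 had at least 20 UMIs over both libraries in 8 cell classes. It was highest in pineal gland-like cells, at 272.8 CPM in TBI and 98.47 CPM in Sham (log2 ratio 1.35, 0.13 to 3.17, on 40 and 5 UMIs). In choroid plexus-like cells, which form the barrier between blood and cerebrospinal fluid, it was at 37.51 and 76.7 CPM (-1.04, -1.86 to -0.19). Ocln, the only junction gene of the set with more than 10 UMIs in each library there, was at 18.11 and 47.94 CPM (-1.40, -2.57 to -0.25, on 14 and 15 UMIs). In the Sham library 1 cell gave 6 of the 15 Ocln UMIs, and 9 cells held any.

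The efflux genes were also found in fibroblast-like cells. Abcg2 was at 250.9 CPM in TBI and 245.0 CPM in Sham fibroblast-like cells (log2 ratio 0.02, -0.34 to 0.43), and Abcb1a at 91.96 and 124.3 CPM (-0.45, -0.98 to 0.14). A cluster without a name, led by Snhg11, held Abcg2 at 321.2 and 392.5 CPM. Plvap in fibroblast-like cells (21.54 and 95.09 CPM) came from 2 cells in the Sham library, 1 of which gave 16 of the 26 UMIs. In macrophage-like cells Plvap had 26 TBI and 0 Sham UMIs, from 9 cells with up to 13 in 1 cell. In choroid plexus-like cells it had 16 TBI and 5 Sham UMIs (20.7 and 15.98 CPM). Mfsd2a had its highest level in Schwann-like cells, on 5 TBI and 3 Sham UMIs (46.68 and 41.37 CPM).

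To set the 10 genes beside others of their pathways, 4 lists were counted in the endothelial-like cells, where 17.0% of all genes were at least 1.5-fold apart. Of 17 junction genes counted, 1 was at least 1.5-fold higher in TBI and 0 lower, with a median log2 ratio of -0.11 against 0.02 over all 9059 genes. Of 20 transporters and receptors, 3 were higher and 2 lower (median -0.05). The amino acid transporter Slc7a5 was at 42.21 CPM in TBI and 98.39 CPM in Sham (-1.22, -1.77 to -0.67), opposite to Slc38a5. Of 21 Wnt pathway genes and barrier transcription factors, 5 were higher and 0 lower (median 0.11). They include the Wnt co-receptor gene Lrp6 (0.80, 0.22 to 1.45), the venous factor Nr2f2 (0.65, 0.27 to 1.05) and Sox18 (0.60, 0.39 to 0.81). Nr2f2 was at 448.4 CPM in TBI and 425.8 CPM in Sham venous-like cells, and at 41.72 and 26.89 CPM in capillary-like cells. Whether its rise came with the larger share of venous-like cells was not tested. Of 18 genes of caveolae, fenestrae and VEGF receptors, 1 was higher, the fatty acid carrier Cd36 (0.75, 0.28 to 1.27), and 1 lower, Igfbp3 (-0.61, -0.70 to -0.52), with a median of -0.18. Igfbp3 is also a capillary marker, at 2840 CPM in TBI and 3596 CPM in Sham capillary-like cells and at 20.95 and 41.21 CPM in venous-like cells. Whether its fall came with the smaller share of capillary-like cells was not tested.

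The same lists were counted between the barrier and the venous subcluster, where 47.0% (Sham) and 43.1% (TBI) of all genes were at least 1.5-fold apart, with median log2 ratios of 0.11 and -0.02. The lists overlap with the markers that named these subclusters. Slc7a5, Slc16a1, Slc22a8 and Slco1c1 of the transporters and Lef1, Foxq1 and Apcdd1 of the Wnt list are barrier markers, and Nr2f2 is a venous marker. Their ratios here are thus partly fixed by the naming and are no separate support for it. Of the transporters and receptors, 4 of 7 were higher in the barrier subcluster and 2 lower in Sham (median 1.19), and 8 of 14 were higher and 2 lower in TBI (0.81). Of the junction genes, 2 of 10 were higher and 3 lower in Sham (median -0.12), and 3 of 15 were higher and 3 lower in TBI (-0.38). Of the Wnt pathway genes and barrier transcription factors, 1 of 8 was higher and 3 lower in Sham (-0.16), and 5 of 18 were higher and 5 lower in TBI (-0.0073). Of the genes of caveolae, fenestrae and VEGF receptors, 2 of 13 were higher and 4 lower in Sham (-0.20), and 1 of 13 was higher and 4 lower in TBI (-0.14). Slc7a5 was higher in both libraries (5.14, 3.43 to 8.55, in Sham; 5.25, 3.58 to 8.66, in TBI), as was the taurine transporter Slc6a6 (2.34, 1.71 to 2.998; 2.37, 2.02 to 2.73). The nucleoside transporter Slc29a1 was lower, with 0 UMIs in Sham and 2 in TBI against 22 and 94 in the venous subcluster. Of the junction genes Lsr, which encodes a protein of tricellular junctions, was at 753.6 and 534.2 CPM against 0 and 60.76 CPM, and the adhesion gene Esam was higher in both libraries (1.12 and 0.90). Pecam1, an adhesion molecule of endothelial junctions, was lower in Sham (-0.95, -1.79 to -0.27), and Ctnnb1, which encodes beta-catenin, was lower in TBI (-0.63, -1.07 to -0.24). Nr2f2 was lower in both libraries (-0.92, -2.28 to 0.08; -1.69, -2.49 to -1.04), and Sox17 was at 492.4 against 60.76 CPM in TBI (2.9985, 2.29 to 3.80).

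Genes whose pattern was most like that of 4 of the genes were found by Pearson r of log2(CPM + 10) over 20 classes in the 2 libraries, which are 40 points that share libraries and depths. For Plvap they were Exoc3l2 (0.956), Emcn (0.95) and Flt4 (0.947), for Cldn5 Mall (0.948), Sox7 (0.943) and Nos3 (0.941), and for Slco1a4 Lrg1 (0.949), Nos3 (0.939) and Rassf9 (0.925). For Ocln, compared with genes of the choroid plexus-like cells, they were Bsg (0.729), Gpm6a (0.714) and Elovl7 (0.689), and these are weaker likenesses.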

How the data were processed

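The measurements are UMI counts per gene and cell barcode in 2 10x Genomics 3' v2 libraries, which the authors made with Cell Ranger and deposited as raw counts, 1 matrix per library. The methods of the study name an older version of Cell Ranger than the submitters' processing notes, which give version 2.1.1 beside Seurat 3.9.9, DESeq2 1.30.0 and the mm10 genome; the matrix header names yet another version. Counts had no normalization, so levels here are UMIs summed over the cells of a class, as counts per 1000000 UMIs of that class (CPM), and library totals were 9527334 and 15011079 UMIs.

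Barcodes were kept with 150 to 5000 genes, at most 20% mitochondrial and at most 5% hemoglobin UMIs. Predicted doublets (33 Sham and 114 TBI, by nearest neighbours among summed pairs of cells) were left in and removed as an alternative. Both libraries were clustered together (2000 variable genes, 20 components, 20 neighbours, Leiden resolution 0.8; leidenalg 0.10.2, scikit-learn 1.9.0) without the 10 genes and without 4 pathway lists, and clusters were named by fixed markers. Under any setting, a cluster of all cells that was named by the CNS barrier capillary markers counted as venous-like. Some of the names may differ from those of the study, since no annotation of the cells was used.

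Ratios are log2 of CPM with 0.5 UMI added to each sum, with exact binomial (Clopper-Pearson) intervals, and levels and shares have exact Poisson and binomial ones (scipy 1.17.1). These cover counting error only: cells of a library are not replicates, and with 1 library of 5 pooled mice per group no p-value is given. A gene was counted with at least 20 UMIs in both groups together and called at 1.5-fold. The count scripts were tested on simulated data. The genes and lists were chosen with earlier results of these data known. Beyond the 10 genes, the text names subtype markers, up to 4 list genes per direction with at least 50 UMIs and an interval without 0 in TBI over Sham, and the 3 genes most like Plvap, Cldn5, Slco1a4 and Ocln. List genes named for the barrier subcluster were chosen after their values were seen. Promoter windows are from RefSeq (GRCm38.p6) and positions from the GRCm38 annotation.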

Additional observations from a re-analysis of the deposited data

Results flagged for a closer look

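Of the 7 genes counted in both capillary-like and venous-like endothelium, 4 met a rule with 2 parts. Their log2 ratio of TBI over Sham had opposite signs in the 2 classes, and at least 1 interval left out 0. The difference between the classes was not tested, since each group has 1 library. The share of all genes that meet this rule was not computed. The median over all genes was 0.0008 in capillary-like and 0.07 in venous-like cells, so opposite signs alone do not set these genes apart. Cldn5 was at -0.78 in capillary-like and 0.18 in venous-like cells. Plvap was at -0.083 and 0.71. Slco1a4 was at -0.75 and 0.20, and Slc2a1 at -0.046 and 0.90. The intervals of Cldn5 and Slco1a4 in venous-like cells and of Plvap and Slc2a1 in capillary-like cells held 0. Abcb1a also had opposite signs (-0.27 and 0.02), but both its intervals held 0, and Slc38a5 had 2 capillary UMIs in each library and was not counted there. The venous-like class holds 56 of the 59 CNS barrier-type cells. Without that subcluster the capillary-like and venous-like ratios were -0.39 and -0.67 for Cldn5, -0.09 and 0.77 for Plvap, -0.41 and -0.21 for Slco1a4 and 0.40 and 1.08 for Slc2a1, so that of these 4 genes Plvap kept opposite signs.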

How the results depend on the processing

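No paired analysis was possible because each group has 1 library, and for the same reason no replicate could be left out. Of 548 single values (42 comparisons of a gene under up to 14 alternative settings), 512 stayed within counting error of the reported value, 33 moved beyond it and 3 that were at least 1.5-fold changed sign. Another 27 values, of ratios under 1.5-fold, also crossed 0. The settings reuse the same libraries, and genes with few UMIs have wide intervals, so a value within counting error is only weak evidence of stability. The sign of the 3 changed for Cldn5 in capillary-like cells, TBI over Sham, when all variable genes were used for clustering (log2 ratio 0.19), for Slco1a4 in the same comparison when cells were divided by their own UMIs of Gpihbp1, Rbp7, Vwf and Cytl1 (0.36), and for Abcb1a, venous-like over capillary-like in Sham, without the CNS barrier subcluster (-0.19). The number of genes at least 1.5-fold apart in all endothelial-like cells was 2 under every alternative run, but not always for the same genes: without the barrier subcluster it was Slc2a1 (0.65) and Ocln (-0.73, lower), with Slc38a5 not counted. In capillary-like cells it fell from 2 to 0 with all variable genes, without the barrier subcluster and at 2-fold, and to 1 at resolutions 0.4 and 1.6, in the division by own UMIs and in cells with at least 1000 UMIs. In venous-like cells it fell from 3 to 0 at 2-fold. For venous-like over capillary-like it fell from 7 to 2 (Sham) and from 8 to 1 (TBI) without the barrier subcluster, which was an alternative added after the data were seen, as were the removal of shared barcodes, of the 10 cells with immune genes and of cells with Prox1 or Ccl21a. The cause of the other changes was not tested.

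The share of cells with Plvap was lower when 2 UMIs counted as detected: 19.51% (Sham) and 19.32% (TBI) of cells with Cldn5, 34.78% and 23.33% with Slco1a4, 10.0% and 14.29% with Slc2a1, 26.32% and 36.73% with Abcb1a, and 0.0% of TBI cells with Slc38a5. Thinned to 1000 UMIs, it was 22.5% (Cldn5), 20.0% (Slc2a1) and 45.71% (Abcb1a) in Sham and 35.59% (Slco1a4), 31.25% (Slc2a1) and 59.72% (Abcb1a) in TBI. Among genes with at least 100 UMIs, 0 junction genes, 1 transporter and 3 Wnt pathway genes were 1.5-fold apart in TBI over Sham, and at 2-fold 0 Wnt pathway and 0 caveolae genes were. The share of all genes was not computed at these thresholds, so these counts cannot be set beside the share of genes at large. The barrier subcluster held 58 to 69 cells over the settings. At resolution 0.4, where it held 69, it kept the 59 cells of the main setting and took in further TBI cells. It then held 72 Plvap UMIs in all, where the 10 TBI cells with immune genes held 71. Scaling by the median ratio moved the median of all genes in venous-like cells from 0.07 to -0.08. With it the log2 ratio of Plvap there, TBI over Sham, was 0.55, just under 1.5-fold. Mfsd2a, Ocln and the 17 Sham barrier cells are limited by their few UMIs.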
